A study of Homo sapiens with 15 samples.

Results

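Chromatin accessibility at the loci of 10 matrix metalloproteinase (MMP) genes was followed in RPTEC, a renal proximal tubule epithelial line immortalized with hTERT, with and without SETD2, the methyltransferase that places H3K36me3. The genes were MMP1, MMP2, MMP3, MMP7, MMP9, MMP10, MMP13, MMP14, MMP15 and MMP16, and they were taken by name out of 20007 protein-coding genes on the 22 autosomes, X and Y. A locus was the gene body in GENCODE 44 with 10 kb on each side. Regions were formed by merging the ATAC-seq peaks of all libraries, and 107 of the 295008 regions that held a peak in at least 2 libraries touched a member locus, 1 of them, the MMP10 promoter, also in the flank of MMP1. Another 27 merged regions at these loci held a peak in 1 library and were not carried further.

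The 5 groups were WT cells, the SETD2 KO lines KO1 and KO2, and the lines Rescue1 and Rescue2, with 3 libraries each. KO lines were single clones made with CRISPR/Cas9 and a guide to SETD2, and rescue lines were single colonies of KO cells that received FLAG-tagged full-length human SETD2 from a lentivirus under blasticidin. The names the study gives to both rescue lines carry the name of the KO2 line, and all lines share hTERT and the G418 kept in the medium. KO against WT compared 6 libraries with 3 and asked how accessibility differs without SETD2, and rescue against KO compared 6 with 6 and asked what returns with it. No source says that replicates were separate cultures, so p-values measure the spread between these libraries, and with the parental WT line set beside 2 clones of each kind, SETD2 and the cloning cannot be told apart. Peak lists do not measure the SETD2 transcript, so the knockout itself was not checked here.

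The lists held 197527 to 266011 peaks per library and covered 49.4 to 65.2 Mb of the main chromosomes. Their read depth was not used here, so a region without a peak is one in which none was called. A promoter region is one that reaches from 1000 bases before to 100 bases after a start site. Of the genes listed for proximal tubule and renal epithelium, PAX8, PAX2, GGT1, ANPEP and CDH16 had a promoter peak in all 15 libraries. HNF4A, CUBN, AQP1 and SLC34A1 of the same list had one in no library, and LRP2 in 1. Of the blood markers, PTPRC, CD3E and SPI1 had none and LYZ had a peak in 2 libraries, while of the endothelial markers CDH5 had one in all 15, KDR in 14, and PECAM1 and TEK in none. The general epithelial genes EPCAM, KRT8, KRT18 and KRT19 had a promoter peak in all 15 libraries and CDH1, which encodes E-cadherin, in the 3 WT libraries and no other, a difference whose part in the results was not tested.

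MMPs are zinc-dependent proteases that cleave collagens, other matrix proteins, growth factors and adhesion molecules outside the cell. Most are made as inactive precursors, are switched on by removal of a propeptide, and are held in check by the tissue inhibitors of metalloproteinases (TIMPs). In kidney epithelium they are known for their part in matrix turnover, fibrosis and the invasion of tumour cells. By role, the members are the matrilysin MMP7, the stromelysins MMP3 and MMP10, the collagenases MMP1 and MMP13, the gelatinases MMP2 and MMP9, and the membrane-type enzymes MMP14, MMP15 and MMP16. MMP7, MMP10, MMP1, MMP3 and MMP13 lie in 1 cluster on chromosome 11 together with MMP20, MMP27, MMP8 and MMP12.

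Several MMP promoters are known for an AP-1 site close to a TATA box, the form through which growth factors and cytokines induce them, and the promoter sequences of the members were read for it. The RefSeq promoter table (GRCh38.p14) matched 4 of the 10 members, MMP7, MMP10, MMP14 and MMP15. The 250 bases before each start are shown 5′ to 3′ on the gene's strand, with the AP-1 letters TGANTCA in capitals. They are shown because MMP7 and MMP10 differ in these letters from MMP14 and MMP15. The other clustered and membrane-type members could not be compared.
MMP7, chr11:102530748-102530997, minus strand: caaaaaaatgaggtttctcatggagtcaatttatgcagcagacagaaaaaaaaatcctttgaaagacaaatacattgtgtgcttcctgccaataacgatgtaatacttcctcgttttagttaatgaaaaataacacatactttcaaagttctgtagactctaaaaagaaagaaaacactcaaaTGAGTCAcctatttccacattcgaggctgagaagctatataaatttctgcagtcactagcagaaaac
MMP10, chr11:102780629-102780878, minus strand: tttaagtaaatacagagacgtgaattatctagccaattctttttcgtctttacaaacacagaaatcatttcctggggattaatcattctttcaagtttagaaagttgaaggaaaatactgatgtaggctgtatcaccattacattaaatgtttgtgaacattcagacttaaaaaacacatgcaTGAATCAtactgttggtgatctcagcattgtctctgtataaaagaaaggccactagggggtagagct
MMP14, chr14:22836335-22836584, plus strand: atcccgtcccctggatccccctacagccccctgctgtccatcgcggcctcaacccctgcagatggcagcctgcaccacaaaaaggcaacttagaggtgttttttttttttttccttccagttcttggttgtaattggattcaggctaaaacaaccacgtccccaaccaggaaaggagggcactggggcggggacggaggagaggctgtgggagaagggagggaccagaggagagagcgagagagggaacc
MMP15, chr16:58025504-58025753, plus strand: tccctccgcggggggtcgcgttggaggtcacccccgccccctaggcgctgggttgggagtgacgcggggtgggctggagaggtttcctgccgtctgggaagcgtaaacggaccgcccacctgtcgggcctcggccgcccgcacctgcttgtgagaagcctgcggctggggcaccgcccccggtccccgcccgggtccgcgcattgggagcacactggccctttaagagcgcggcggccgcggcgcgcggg
The AP-1 letters began 67 bases before the start in both MMP7 and MMP10, and TATAAA began 30 bases before it in MMP7 and 31 in MMP10, so the matches do not overlap. MMP14 and MMP15 held neither. GGGCGG, the letters bound by SP and KLF factors, was found once in MMP14, 66 bases before the start, and 5 times in MMP15. Searched on both strands, TGANTCA is held by 6.57%, TATAAA by 10.7% and GGGCGG by 42.6% of 35116 RefSeq promoters of this length. In the 300 bases at the centre of each region, TGANTCA was present in 27.1% of the 107 member regions, in 32.5% of the 83 regions of the chromosome 11 cluster and in 31.7% of all 295008. A match of letters is a description of the sequence and not a bound site.

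The promoter of 9 of the 10 members held a peak in all 15 libraries, against 66.1% of all protein-coding genes. Of 13 other MMP genes only 3 (23.1%) had one in all 15, and 6 had one in no library. The members thus do not stand for MMP genes in general. Among the members MMP3 was the exception, with a promoter peak in all 3 KO1 libraries, in 1 KO2 library and in no WT, Rescue1 or Rescue2 library. To compare strength between lists, the fold enrichment of a region's strongest peak was turned into its percentile among all peaks of its own library, and these percentiles were tested with limma over the 104967 regions with a peak in all 15 libraries, with Benjamini-Hochberg adjustment over all of them. Of the 50 member regions so tested, 12 were higher and 7 lower in KO than in WT at an adjusted p under 0.05 (24% and 14%), against 13.9% and 9.46% of all regions. With quantile-normalized log2 fold enrichment in place of percentiles 10 were higher and 10 lower, against 12.5% and 12.2% of all regions. In rescue against KO, 10 were higher and 6 lower (20% and 12%), against 12.2% and 9.26% of all regions. The 50 include regions of neighbouring genes in the flanks, among them the promoters of MRPL52 and LPCAT2 and exons of USB1 and SLC12A5. Their peaks also count in the bases of the MMP14, MMP2, MMP15 and MMP9 loci. The MRPL52 promoter is 1 of the 6 lower in rescue (-9.52 points, limma adjusted p = 0.029). The median difference over all regions was 0.146 points for KO against WT and 0.232 points for rescue against KO. Both comparisons use the same KO libraries.

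**Figure D1:**
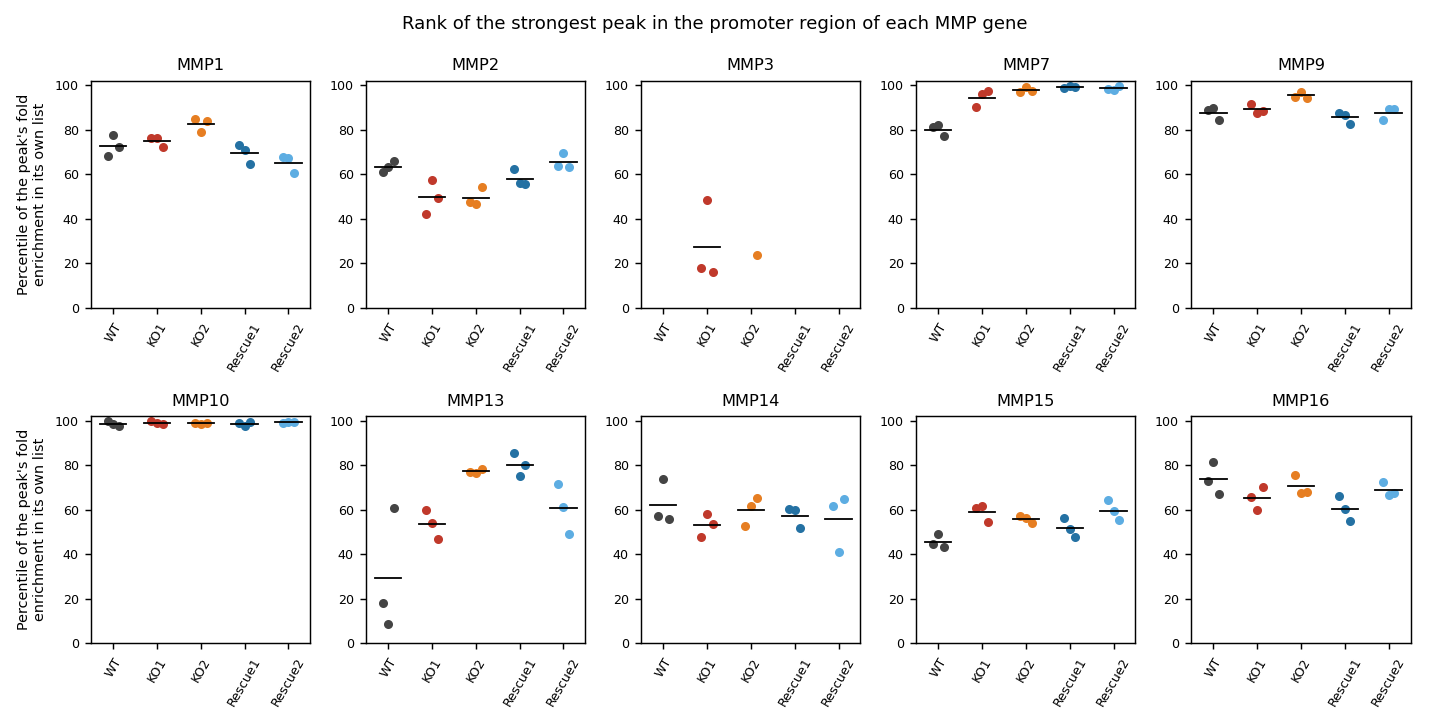
Percentile (0 to 100) of the fold enrichment of the strongest promoter peak within its own library's list, for each MMP gene, with 1 point per library and a line at the mean of groups with 3 values. MMP7 is higher in every KO and rescue library than in WT, MMP2 is lower in KO, and MMP3 has points in 3 KO1 libraries and 1 KO2 library.

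MMP7, the matrilysin of glandular epithelium, lies at chr11:102520508-102530750 on the minus strand and had its promoter peak at chr11:102530508-102530986. The percentile of this peak was 81.1, 82.3 and 77.0 in WT, 90.1, 96.1 and 97.5 in KO1, 97.3, 99.5 and 97.5 in KO2, 99.0, 99.7 and 99.5 in Rescue1, and 98.6, 98.1 and 99.7 in Rescue2. No WT library reached the lowest KO library, and the rescue libraries did not return towards WT. KO was above WT by 16.2 ± 1.6 points (SE; limma adjusted p = 5e-06), and rescue was 2.78 points above KO (limma adjusted p = 0.133). A region in the last part of the gene, chr11:102521109-102521590, 9397 bases from the start and annotated as intron, moved in the same way. There the percentile was 47.3, 62.7 and 66.4 in WT and 85.0 to 95.1 in the 6 KO libraries, a difference of 32.4 ± 3.2 points (limma adjusted p = 7.36e-06). It lay between 92.2 and 96.8 in the 6 rescue libraries. Beyond the 3′ end, chr11:102517764-102517952 rose from 15.6, 19.4 and 5.97 in WT to between 38.0 and 60.3 in KO, by 33.1 ± 5.5 points (limma adjusted p = 0.000559). It was higher again in rescue, at 54.2 to 69.4, by 14.6 ± 4.5 points (limma adjusted p = 0.0322), an increase that lost its call when any one of 10 of the 15 libraries was left out.

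While these 3 peaks of MMP7 ranked higher, other peaks of the locus were absent from KO. Over 6 KO and 3 WT libraries a region counted as gained when all KO libraries had a peak in it and WT had none, and as lost with the groups exchanged, and by this rule 4.79% of the 295008 regions were gained and 2.48% lost in KO. No region (0 of 295008) passes Fisher's exact test after adjustment in either comparison (smallest adjusted p = 0.164, and 0.101 for rescue against KO), and unadjusted 10 and 4 member regions had a p under 0.05, against 10.8% and 5.29% of all regions. Of the 107 member regions 2 were gained and 2 lost, and both losses were at MMP7. Without WT replicate 2 the 4 became 8, against 8.71% of all regions. The region chr11:102534425-102534558, 3745 bases before the MMP7 start and intergenic, held a peak in 3 WT libraries, in no KO library and in 1 Rescue2 library, at percentiles of 16.3, 5.78 and 37.0 in WT. Its sequence is shown because it is the lost region nearest to a member promoter, and it holds no AP-1 match.
chr11:102534425-102534558, hg38, plus strand: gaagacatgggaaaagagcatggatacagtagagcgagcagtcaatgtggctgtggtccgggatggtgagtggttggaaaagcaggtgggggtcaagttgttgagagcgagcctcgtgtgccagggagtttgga
The second, chr11:102519721-102520001, lay just past the 3′ end of MMP7 and held weak peaks in the 3 WT libraries and no other. Of its 31-base words, 33.1% occur again on chromosome 11. The number of the locus's 12 regions with a peak was 8.67 on average in WT, 6 in KO and 4.83 in rescue, with an exact permutation p of 0.119 between WT and KO and of 0.141 between KO and rescue, two-sided. Bases under peaks at MMP7 were 1799, 1431 and 1726 in WT, 1445, 1449 and 1480 in KO1, and 1351, 1276 and 1309 in KO2. Groups overlapped, since 1 WT library lay among the KO libraries, and the difference of -267 bases did not pass the test (exact permutation p = 0.0952). At MMP7, ranks thus rose at 3 regions with no gain in covered bases.

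MMP3, the stromelysin that also cleaves and activates other MMP precursors, lies at chr11:102835801-102843609 and was the least covered member. Bases under peaks were 213, 199 and 181 in WT, 516, 496 and 922 in KO1, 562, 287 and 465 in KO2, 251, 237 and 342 in Rescue1, and 267, 282 and 350 in Rescue2. Every KO library was above every WT library, and the rescue libraries were above WT and overlapped KO through 1 KO2 library. The mean was 198 ± 16 in WT (SD, n = 3), 541 ± 209 in KO (n = 6) and 288 ± 47.3 in rescue (n = 6). For each gene the group means were compared by an exact permutation test over libraries, two-sided, with adjustment over all 20007 genes. KO against WT reached the smallest p that 6 against 3 allows (exact permutation p = 0.0238, adjusted p = 0.103), and 0 of the 20007 genes passed after adjustment, so that non-overlap of the groups is given instead. Unadjusted, 4 of the 10 members had a p under 0.05 against 30.3% of all genes, and limma on log2(bases + 100) called 2 against 25.5%. Of all genes 12.2% were higher and 10.9% lower in KO without overlap, and among the 10 members MMP3, MMP10 and MMP16 were higher and MMP15 lower. Divided by the megabases each library covers, 2 were higher and 2 lower, against 10.2% and 28.8% of all genes. In rescue, MMP3 fell by 253 bases against KO (exact permutation adjusted p = 0.0339), a call that stricter peak sets lost. In rescue against KO, 18.8% of all genes were higher and 4.29% lower at an adjusted p under 0.05, and 2 of the members passed, MMP3 lower and MMP9 higher. No member separated the 2 groups without overlap, which 9.79% of all genes did upwards and 2.67% downwards.

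The MMP3 locus consisted of 3 regions, 2 in the gene and 1 upstream. At the promoter, chr11:102843532-102843807, the percentiles of the 4 called peaks were 17.9, 48.5 and 15.9 in KO1 and 23.7 in KO2, which places them in the lower part of their lists. A peak in the exon region chr11:102836342-102836555 was called in 2 KO1 libraries and 1 KO2 library and in none of the other groups. The upstream region chr11:102851259-102851745, 7893 bases before the start, held a peak in all 15 libraries. Its percentile was 86.6, 72.5 and 68.3 in WT, 93.6, 87.7 and 90.3 in KO1, and 98.6, 99.2 and 99.1 in KO2. No WT library reached the KO libraries (18.9 ± 3.1 points, limma adjusted p = 0.000539), and rescue, at 89.0 to 97.7, did not pass the test against KO (limma adjusted p = 0.949). Its central 300 bases carry 1 AP-1 match, in capitals.
chr11:102851352-102851651, hg38, plus strand: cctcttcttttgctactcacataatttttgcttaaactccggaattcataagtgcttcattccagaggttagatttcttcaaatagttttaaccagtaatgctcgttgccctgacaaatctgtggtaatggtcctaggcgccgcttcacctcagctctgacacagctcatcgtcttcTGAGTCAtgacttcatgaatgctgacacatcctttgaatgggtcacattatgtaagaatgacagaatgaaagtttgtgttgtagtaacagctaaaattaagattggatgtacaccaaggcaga

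MMP10, a second stromelysin at chr11:102770502-102780628, had among the strongest promoter peaks of every library. At chr11:102780396-102780891 the percentile lay between 97.5 and 100 in all 15 libraries, so that this measure has little room to move, and neither comparison passed the test. Bases under peaks at the locus were 707, 826 and 856 in WT, 875, 991 and 903 in KO1, and 1298, 1068 and 1061 in KO2. The groups did not overlap, with means of 796 ± 78.8 in WT and 1033 ± 152 in KO (exact permutation p = 0.0238), and the lowest KO library (875) was close to the highest WT library (856). With bases divided by each library's own covered megabases the groups overlapped (exact permutation p = 0.238). In rescue the locus held 850 to 1243 bases, a mean difference of -4.5 from KO (exact permutation p = 0.963). An intergenic region 18067 bases past the MMP10 start, chr11:102762404-102762718, ranked higher in rescue than in KO by 13.5 ± 3.8 points (limma adjusted p = 0.0216), a call lost with any one of 4 of the 15 libraries left out.

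**Figure D2:**
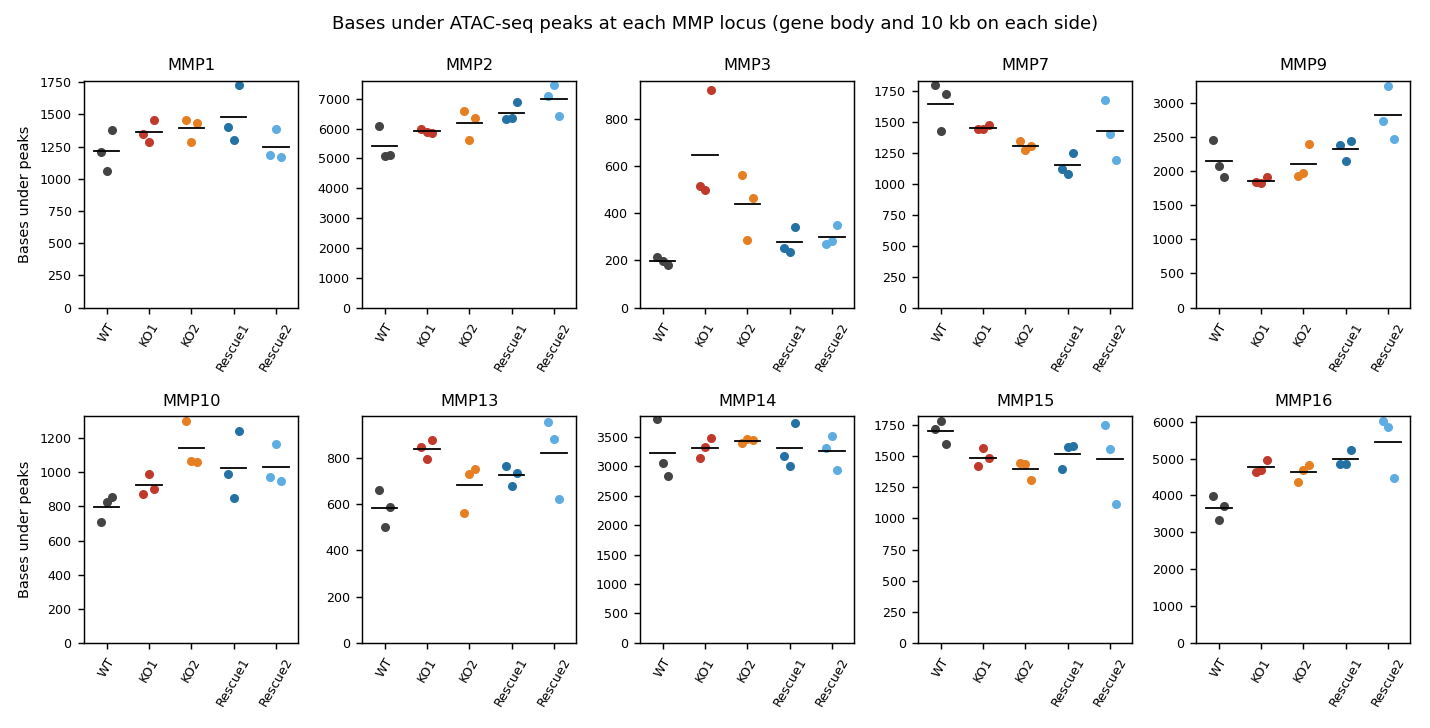
Bases under peaks in each MMP locus (y axis, from 0, with its own scale per gene), with 1 point per library and a line at the group mean. KO libraries lie above WT without overlap at MMP3, MMP10 and MMP16 and below at MMP15.

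MMP1, the interstitial collagenase at chr11:102789401-102798160, showed a change of rank with little change of coverage. Its locus held 1060 to 1380 bases under peaks in WT, 1283 to 1460 in KO and 1172 to 1726 in rescue, with overlap in both comparisons (exact permutation p = 0.119 and 0.896). Of 6 regions, 5 held a peak in every library. At the promoter, chr11:102798079-102798464, percentiles were 68.3, 77.5 and 72.5 in WT, 72.5 to 84.8 in KO, 73.0, 71.1 and 64.8 in Rescue1, and 67.7, 67.3 and 60.6 in Rescue2. Rescue differed from KO by -11.4 ± 2.7 points (limma adjusted p = 0.0091), with 1 rescue library above the lowest KO library, and KO did not pass against WT (6.08 points, limma adjusted p = 0.219).

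The largest fall in rank among the 50 member regions in KO against WT was upstream of MMP1, at chr11:102807979-102808279, 9969 bases before the start. Its percentile was 87.8, 91.9 and 83.2 in WT, 60.1, 54.0 and 56.6 in KO1, and 24.5, 53.5 and 45.6 in KO2. Every KO library was below every WT library, with a difference of -38.6 ± 7.6 points (SE, limma adjusted p = 0.00195). Rescue1 stood at 69.2, 80.6 and 67.2 and Rescue2 at 42.0, 61.2 and 22.1, and rescue against KO did not pass the test (7.98 points, limma adjusted p = 0.388). The first 300 bases of the region are shown because its rank fell most, and they hold no AP-1 match. Whether AP-1 letters go with the direction of a change was not tested.
chr11:102807979-102808278, hg38, plus strand: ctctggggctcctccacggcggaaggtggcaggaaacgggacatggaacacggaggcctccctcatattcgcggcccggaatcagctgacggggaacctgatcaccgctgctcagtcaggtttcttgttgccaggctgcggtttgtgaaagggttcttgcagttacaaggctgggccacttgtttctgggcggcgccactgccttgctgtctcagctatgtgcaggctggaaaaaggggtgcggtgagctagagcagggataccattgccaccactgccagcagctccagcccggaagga

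MMP13, a collagenase of cartilage and bone matrix, lies at chr11:102942995-102955732. Its promoter region, chr11:102955681-102955938, had the largest rise in rank in KO, from 17.9, 8.45 and 61.0 in WT to 60.1, 54.0 and 46.7 in KO1 and 77.1, 76.7 and 78.2 in KO2. The WT library at 61.0 was above all 3 KO1 libraries, so the groups overlapped, and the difference was 36.4 ± 8.8 points (limma adjusted p = 0.008). Without WT replicate 2 it was 26.0 points (adjusted p = 0.0605), and KO1 alone was 24.5 points above WT (adjusted p = 0.107). Rescue1 held 75.2 to 85.3 and Rescue2 49.2 to 71.7, and rescue against KO did not pass the test (4.97 points, limma adjusted p = 0.669). An intron region, chr11:102950624-102950792, held a peak in 3 KO1 libraries and 1 KO2 library and in none of the others, the same counts as at the MMP3 promoter. Bases under peaks were 503 to 659 in WT and 561 to 877 in KO (exact permutation p = 0.0714).

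MMP2, the gelatinase that cleaves type IV collagen of basement membranes, spans chr16:55389700-55506691 on the plus strand in GENCODE, with upstream transcripts that make its locus longer than the canonical gene. Of 22 regions 13 held a peak in all libraries, and 3 of these were called both lower in KO and higher in rescue. At the promoter, chr16:55478831-55479739, percentiles were 61.0, 63.2 and 65.9 in WT, 42.0, 57.5 and 49.2 in KO1, 47.4, 46.6 and 54.2 in KO2, 62.4, 56.0 and 55.5 in Rescue1, and 63.7, 69.5 and 63.3 in Rescue2. All KO libraries were below all WT libraries (-13.9 ± 4.2 points, limma adjusted p = 0.0258), and rescue was above KO by 12.2 ± 3.4 points (limma adjusted p = 0.0198), with 2 Rescue1 libraries below the highest KO library. The first call was lost without WT replicate 2 (adjusted p = 0.0714) or WT replicate 3 (adjusted p = 0.0989), and the second without Rescue2 replicate 2 (adjusted p = 0.0512).

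The exon region chr16:55488189-55488730, 9262 bases into MMP2, had a clearer pattern. Percentiles were 91.0, 86.1 and 81.3 in WT, 48.4, 50.2 and 58.2 in KO1, 58.0, 54.8 and 61.2 in KO2, 66.1, 73.6 and 62.3 in Rescue1, and 75.8, 77.4 and 67.0 in Rescue2. KO, rescue and WT did not overlap, in that order from low to high. KO differed from WT by -31.0 ± 4.1 points (SE, limma adjusted p = 8.57e-05), and rescue was 15.3 ± 3.3 points above KO (limma adjusted p = 0.00532). Both calls held with each of the 15 libraries left out in turn. In an intron of an upstream transcript, chr16:55418653-55418863, rescue stood at 88.9 to 96.3 against 54.0 to 71.1 in KO, 27.0 ± 2.7 points higher (limma adjusted p = 2.26e-05), and above WT, which held 72.5 to 84.9. KO differed from WT there by -11.6 ± 3.3 points (limma adjusted p = 0.0217). KO1 alone differed from WT by -16.9 points (limma adjusted p = 0.00639). KO2 alone differed by -6.25 points and did not pass (limma adjusted p = 0.301). One MMP2 region went the other way in KO, the exon region chr16:55480300-55480841, 1373 bases into the gene, which stood at 57.1, 45.9 and 50.9 in WT and at 58.8 to 70.5 in KO. It was 12.7 ± 3.8 points higher in KO (limma adjusted p = 0.0267), a call lost with any one of 4 of the 15 libraries left out. Another went the other way in rescue, the intron region chr16:55495108-55495355, by -18.7 ± 4.4 points against KO (limma adjusted p = 0.00849).

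One region beside MMP2 was gained in KO, chr16:55506748-55506975, which begins just past the 3′ end of the gene and lies 2210 bases before the start of LPCAT2. Each of the 12 KO and rescue libraries had a peak there and the WT libraries had none, at percentiles of 7.76 to 28.4 in KO and 2.05 to 34.5 in rescue. Peaks here were weak wherever they were called. It is shown because it is 1 of the 2 gained member regions, and it holds no AP-1 match.
chr16:55506748-55506975, hg38, plus strand: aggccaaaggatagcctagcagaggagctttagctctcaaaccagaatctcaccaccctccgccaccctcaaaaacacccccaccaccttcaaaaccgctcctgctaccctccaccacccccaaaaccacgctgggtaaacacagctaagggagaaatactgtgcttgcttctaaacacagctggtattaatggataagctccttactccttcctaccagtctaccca
Bases under peaks at the MMP2 locus were 5064 to 6085 in WT, 5602 to 6603 in KO and 6309 to 7474 in rescue, and neither comparison passed after adjustment (exact permutation adjusted p = 0.282 and 0.069).

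MMP9, the other gelatinase, lies at chr20:46008908-46016561 and held 10 regions. Bases under peaks were 2468, 2083 and 1923 in WT, 1837, 1826 and 1911 in KO1, 1929, 1976 and 2408 in KO2, 2390, 2147 and 2444 in Rescue1, and 2740, 3256 and 2475 in Rescue2. WT and KO overlapped (exact permutation p = 0.238), and rescue was above KO by 594 bases, from 1981 ± 217 to 2575 ± 384 (n = 6 each, exact permutation adjusted p = 0.0339), with KO2 replicate 3 inside the range of rescue. This increase lay in the flanks, and within the gene body rescue differed from KO by -29.7 bases (exact permutation p = 0.519). The promoter region chr20:46008200-46008937 fell by 5.7 ± 1.5 points of rank in rescue (limma adjusted p = 0.0156), from 87.6 to 97.2 in KO to 82.7 to 89.4 in rescue. In the flank, chr20:46021498-46022690 in an exon of SLC12A5 was 22.7 ± 5.2 points higher in KO than in WT (limma adjusted p = 0.00569), at 53.1 to 72.0 against 28.4 to 44.1.

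MMP14, which is anchored in the membrane, degrades collagen at the cell surface and activates the MMP2 precursor, lies at chr14:22836560-22849041. Its locus held 2829 to 3797 bases under peaks in WT, 3144 to 3473 in KO and 2941 to 3737 in rescue, with no difference past the test (exact permutation p = 0.524 and 0.487). Percentiles of the promoter region chr14:22836308-22837000 were 55.7 to 74.0 in WT, 47.6 to 65.5 in KO and 40.8 to 65 in rescue, overlapping throughout. Among the members 1 region was gained in KO and lost in rescue, chr14:22847780-22848234, 11422 bases into MMP14 and annotated as intron. Each of the 6 KO libraries had a peak there, and WT and rescue had none. Over all regions 0.910% were gained and 1.24% lost in rescue against KO, and of the 107 member regions 1 was gained and 1 lost. The KO percentiles of this MMP14 region were 2.05, 2.2, 6.1, 6.32, 1.95 and 11.1, so all 6 peaks were near the bottom of their lists, and none was left under the stricter peak sets. Its central 300 bases hold no AP-1 match.
chr14:22847857-22848156, hg38, plus strand: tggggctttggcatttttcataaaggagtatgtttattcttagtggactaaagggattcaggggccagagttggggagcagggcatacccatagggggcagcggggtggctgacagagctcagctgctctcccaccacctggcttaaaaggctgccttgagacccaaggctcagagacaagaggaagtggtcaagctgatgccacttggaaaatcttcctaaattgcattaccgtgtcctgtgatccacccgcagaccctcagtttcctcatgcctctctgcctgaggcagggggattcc
Past the 3′ end, chr14:22850997-22851810 stood at 67.4, 73.1 and 75.2 in WT, 53.4 to 65 in KO and 70.9 to 77.3 in rescue. KO overlapped neither of the other groups and differed from WT by -11.3 ± 3.4 points (SE, limma adjusted p = 0.0273), and rescue was 14.2 ± 2.8 points above KO (limma adjusted p = 0.00272). The first call was lost without WT replicate 2 (adjusted p = 0.0925) or WT replicate 3 (adjusted p = 0.121). An intron region 2264 bases into MMP14, chr14:22838574-22839124, was 20.2 ± 5.2 points higher in rescue than in KO (limma adjusted p = 0.0134).

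MMP15, a second membrane-type enzyme at chr16:58025754-58046901, was the 1 member with fewer bases under peaks in KO without overlap. Values were 1717, 1785 and 1594 in WT, 1418, 1563 and 1481 in KO1, and 1443, 1436 and 1304 in KO2, with means of 1699 ± 96.8 and 1441 ± 84.6 (exact permutation p = 0.0238, adjusted p = 0.103). Rescue held 1118 to 1753 bases and overlapped both. The promoter peak ranked higher in KO although the locus covered fewer bases. At chr16:58025428-58026495 percentiles were 44.6, 48.8 and 43.0 in WT and 54.1 to 61.5 in KO, 11.9 ± 3.8 points higher (limma adjusted p = 0.0354), a call that was lost with 7 of the 15 libraries left out in turn.

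MMP16, a membrane-type enzyme whose gene spans 296015 bases at chr8:88032011-88328025, held 31 of the 107 regions, 29 of them in introns. Bases under peaks were 3976, 3322 and 3713 in WT, 4623, 4702 and 4971 in KO1, 4371, 4689 and 4822 in KO2, 4841, 4865 and 5228 in Rescue1, and 6007, 5857 and 4483 in Rescue2. No KO library reached down to WT, with means of 3670 ± 329 and 4696 ± 201 (exact permutation p = 0.0238), and rescue, at 5214 ± 606, did not return towards WT. The number of its regions with a peak went from 17 in WT to 20.2 in KO and 23.8 in rescue (exact permutation p = 0.0238 and 0.0173). These 2 p-values are unadjusted, and no share of all genes is given for this count. Among the introns, chr8:88239976-88240241 stood at 69.8, 41.6 and 52.1 in WT, at 80.7 to 92.7 in KO and at 38.9 to 77.3 in rescue. That is 33.0 ± 7.3 points higher in KO (limma adjusted p = 0.00468) and a difference of -23.1 ± 6.0 points in rescue against KO (limma adjusted p = 0.0139). The regions chr8:88319553-88319758 and chr8:88242481-88242725 were higher in KO by 34.4 ± 8.2 and 20.4 ± 4.7 points (limma adjusted p = 0.00715 and 0.00555). In rescue against KO, chr8:88101815-88102096 and chr8:88117470-88117693 were higher by 22.3 ± 5.3 and 12.5 ± 4.1 points (limma adjusted p = 0.00902 and 0.0406), and the second call was lost with any one of 8 of the 15 libraries left out. The region chr8:88243720-88243859 held a peak in all 6 rescue libraries and in no other. The promoter region of MMP16 held 67.1 to 81.4 in WT and 60 to 75.7 in KO and passed neither comparison.

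**Figure D3:**
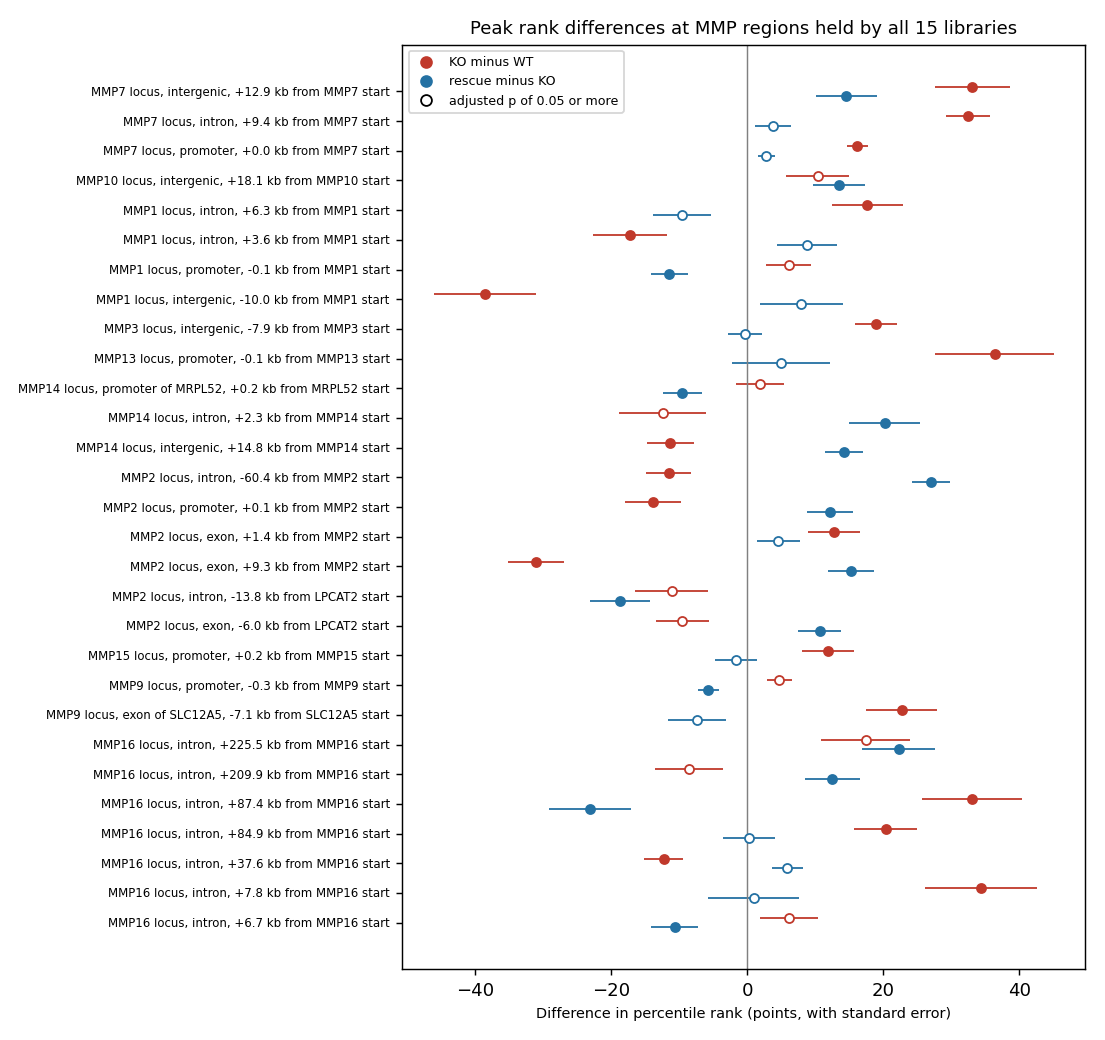
Differences in percentile rank (points) with standard errors at the 29 member regions called in at least 1 comparison, red for KO minus WT and blue for rescue minus KO, open where the adjusted p is 0.05 or more; regions are named by locus, feature and distance to the nearest start. MMP7 rises in KO and does not fall in rescue, while the MMP2 promoter and the exon 9.3 kb into MMP2 fall in KO and rise in rescue.

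Of the 50 member regions 6 were called in both comparisons. The directions were opposite at 5 of them, 3 at MMP2, 1 beside MMP14 and 1 in MMP16, and the same at 1, past the 3′ end of MMP7. The KO libraries enter both comparisons, so the signs are not independent of each other. How many of all tested regions were called in both, and in which directions, was not counted. The 6 and the 5 thus have no share beside them, and no trait of MMP loci can be read from them. Between the 2 KO clones limma called 0 of the 50 (8 had an unadjusted p under 0.05 against 16.7% of all regions, and 3.55% of all regions were called), and between the 2 rescue lines 1 passed (1.85% of all regions did).

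The chromosome 11 cluster was also taken as 1 block, chr11:102510508-102965732, with 9 protein-coding genes. Bases under peaks in the block were 14269, 12582 and 12783 in WT, 15960, 16001 and 16542 in KO1, 15526, 15001 and 16505 in KO2, 14754, 14135 and 16193 in Rescue1, and 16277, 16122 and 13673 in Rescue2. Every KO library was above every WT library, with means of 15923 ± 589 and 13211 ± 921, a difference of 2711 bases or 1.21-fold (exact permutation p = 0.0238). Rescue, at 15192 ± 1154, did not pass the test against KO (-730 bases, exact permutation p = 0.199). Covered megabases differ between libraries, and per megabase covered the block held 256 ± 2.42 bases in WT, 285 ± 10.9 in KO and 261 ± 11.8 in rescue. On that scale rescue differed from KO by -24.2 bases (exact permutation p = 0.0108), so the reading of rescue depends on the scale.

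Most of the gain in the block lay between the member loci, as did most of its length and of its WT peaks. The part outside the member loci spans 316776 of 455225 bases and held on average 9080 of 13211 bases under peaks in WT. Outside the member loci KO held 2174 more bases than WT without overlap (exact permutation p = 0.0238), and inside them 537 more, with 1 KO library below 2 WT libraries (exact permutation p = 0.0714). Of the 83 regions in the block 34 (41%) held a peak in all 15 libraries, against 35.6% of all regions. In KO 2 were gained and 3 lost, against 4.79% and 2.48% of all regions. In rescue 1 was lost, against 1.24% of all regions. The gained regions were chr11:102626644-102626979, 1480 bases before MMP20, with peaks in the 12 KO and rescue libraries but not in WT, and chr11:102869483-102869730 in an intron of MMP12, with peaks in the 6 KO libraries and no other. Of the 31-base words in the second, 33.0% occur again on chromosome 11, and 16.7% of those in the first. The third lost region, chr11:102929367-102929521, held a peak in the 3 WT libraries and no other. The number of the block's regions with a peak was 51.7 in WT, 58.2 in KO and 52.2 in rescue, with an unadjusted exact permutation p of 0.0952 between WT and KO and of 0.00866 between KO and rescue.

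**Figure D4:**
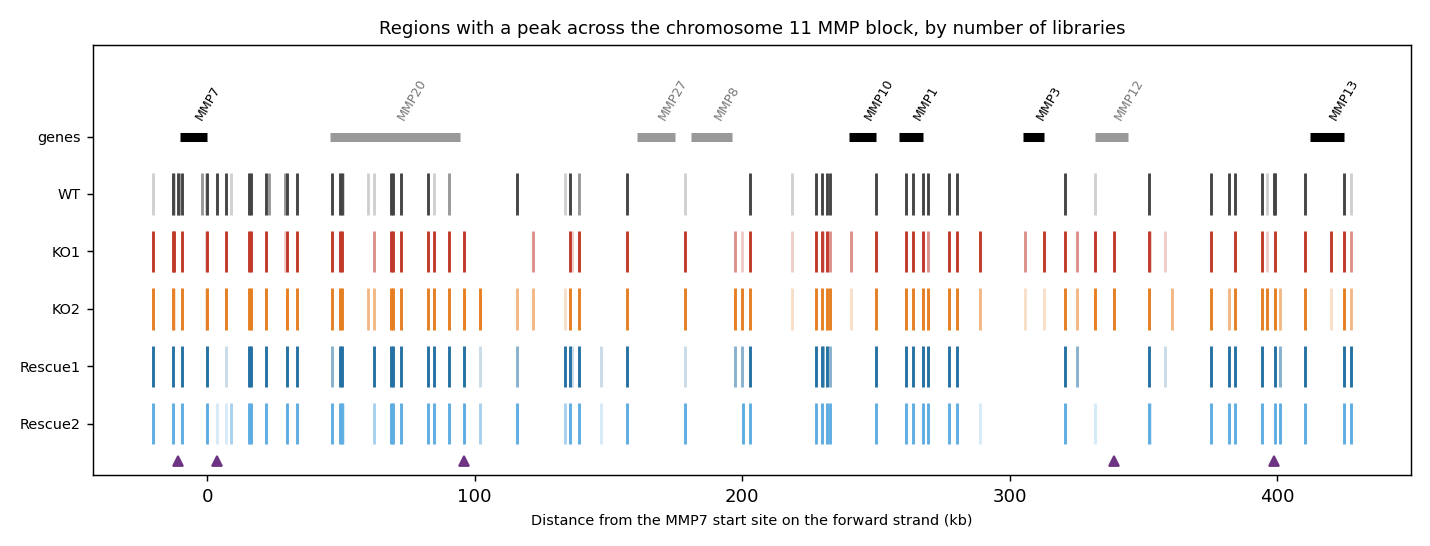
Regions with a peak across the chromosome 11 block, placed by distance from the MMP7 start (kb), 1 row per group, with paler ticks where 1 or 2 of the 3 libraries held a peak; bars show gene bodies, black for members. Triangles mark the 5 regions gained or lost, and the ticks at MMP3 and MMP12 that appear in the KO rows are absent or paler in WT and rescue.

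The other genes of the pathway were taken from a list of 26: 13 further MMPs, 5 inhibitors, 5 activators and inducers, and 3 related membrane proteases. In KO against WT 6 of the 26 were higher and 2 lower without overlap, against 12.2% and 10.9% of all genes. In rescue against KO 4 were higher and 3 lower, against 9.79% and 2.67% of all genes. Of those higher in KO, MMP8, MMP12, MMP20 and MMP27 lie in the chromosome 11 block, so they are not separate from its gain. The 10 kb flanks of MMP8 and MMP27 overlap, so peak bases there count for both genes. The genes MMP8 and MMP12 of the block were among those higher in KO and lower in rescue. MMP8, the neutrophil collagenase, held 182 to 300 bases in WT, 671 to 941 in KO and 341 to 507 in rescue. MMP12, the macrophage elastase, held 226 to 379 in WT, 856 to 1284 in KO and 506 to 761 in rescue. In both genes rescue lay between WT and KO without overlap with either (exact permutation adjusted p = 0.0174 for rescue against KO), and neither promoter held a peak in any library.

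MMP26, which lies elsewhere on chromosome 11 in a gene of 287648 bases, held 558 to 907 bases in WT, 3358 to 4082 in KO and 1248 to 2056 in rescue. MMP20 and MMP27 were higher in KO by 1.30-fold and 1.58-fold without overlap, and MMP25 was lower, at 0.731 of WT, and higher again in rescue, at 1.36 times KO. Among inhibitors TIMP2 was higher in KO, at 1.22 times WT, TIMP1, TIMP4 and RECK overlapped in both comparisons, and TIMP3 had peaks in the KO2 and Rescue1 libraries and in no other. Among activators PLAUR, the urokinase receptor, was lower in KO, at 0.868 of WT, and FURIN, a protease that cleaves MMP14 precursors, was higher in rescue, at 1.47 times KO. The FURIN promoter held a peak in no WT library and in every KO and rescue library. MMP19 and MMP24 were higher in rescue than in KO, at 1.30 and 1.13 times. The median ratio of KO to WT was 1.12 over the 10 members and 0.994 over the 26 genes, beside 0.989 over all genes, and of rescue to KO 1.01 and 1.05, beside 1.07.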

How the data were processed

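ATAC-seq libraries were made by the authors from RPTEC with Tn5 and a Nextera kit, and per the submitters' processing notes reads were processed with BWA 0.7.17 and MACS2 2.2.7.1 on hg38 (the methods give an earlier BWA). Peaks were called per library, and the deposited lists give a score, a fold enrichment and −log10 p and q values from MACS2, all made by the authors before deposition. DiffBind 2.14.0 is named in the notes, and its read counts were not used here. The deposited lists reach down to a −log10 q of 1.3.

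Columns 1 to 3 of the 15 lists were merged into regions on the main chromosomes (overlap of at least 1 base), and bases under peaks were counted per locus. Group means were compared by exact permutation tests over libraries (numpy 2.4.6), occupancy by the all-or-none rule with Fisher's exact test (scipy 1.17.1), and percentile ranks by limma 3.58.1 with a trend, each adjusted by the Benjamini-Hochberg method over all genes or regions, as in the report. Each statistic was tested on simulated data. All 10 members are named, with their promoter regions, every gained or lost region, and up to 10 regions per comparison with the largest called rank differences. Pathway genes are named where groups did not overlap, and any other name was picked with its values in view. The members, gene lists and tests were chosen with earlier results of these data known. The design text speaks of duplicates, whereas the labels give 3 replicates per line. Same-numbered libraries did not deviate together (correlations of -0.184 to 0.0502 over 30 pairs), so the numbers were not taken as pairs. Some marker genes are not reported here.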

Additional observations from a re-analysis of the deposited data

Results flagged for a closer look

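In MMP9, KO2 replicate 3 stood apart from the other 5 KO libraries, with 2408 bases under peaks against 1976 in the next highest, among 22 groups of 6 libraries examined, where chance marks about 1 in 20. Without it the difference between rescue and KO at MMP9 was 680 bases in place of 594.

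The 2 rescue lines differed at 1 of the 50 member regions compared, the MMP16 intron region chr8:88120561-88120831. Its percentile was 47.7, 40.9 and 13.5 in Rescue1 and 71.1, 87.6 and 60.5 in Rescue2, a difference of -39.0 points (limma adjusted p = 0.0313).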

How the results depend on the processing

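Counts of members with non-overlapping loci, member regions gained or lost, and member regions called by limma were 4 (23.2%), 4 (7.26%) and 19 of 50 (13.9% higher and 9.46% lower) for KO against WT. For rescue against KO they were 0 (12.5%), 2 (2.15%) and 16 (12.2% higher and 9.26% lower). Shares of all genes or regions called in the same way are in parentheses. For KO against WT the loci came to 2 with no flank (21.0%), 1 with summits counted in place of bases (12.5%), 2 by limma on log2(bases + 100) (25.5%) and 4 per megabase covered (39.0%), a scale chosen after seeing the data. The regions came to 1 with no flank (7.26%), 26 when a majority of libraries was enough (22.5%) and 12 for KO1 alone (11.9%). For rescue against KO the loci came to 1 with the 150000 strongest peaks (12.2%), 2 and 1 for Rescue1 (31.1%) and Rescue2 (28.5%) alone, each set against KO2 here and below, 2 by limma (31.3%) and 1 per megabase (15.3%). The regions came to 0 with a −log10 q of at least 5 (2.37%) and 0 with 150000 peaks (2.68%), 1 when peaks had to cover at least 50% of a region (2.26%), 16 by majority (14.3%) and 5 for Rescue2 alone (6.01%), and the ranks to 6 and 3 for Rescue1 (7.59%) and Rescue2 (3.55%) alone. The causes were not tested.

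The block rose by 2956 bases in KO1 alone and 2466 in KO2 alone (exact permutation p = 0.1 for both, the smallest that 3 against 3 allows). In rescue it differed by -6.5 summits (exact permutation p = 0.0195) and -24.2 bases per megabase (p = 0.0108 by the same exact permutation test).

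With each library left out in turn, KO against WT gave 4 to 6 loci, 4 to 8 regions (8 without WT replicate 2, 8.71% of all regions), 14 to 20 ranks and 2396.5 to 3240 bases in the block, which lost its call without any one WT library, where 6 against 2 allows no p below 0.0714. Rescue against KO gave 0 to 1 loci (1 without KO2 replicate 2, 13.3%, or 3, 17.6%), 2 to 3 regions, 11 to 16 ranks and -947.1 to -426.3 bases.

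Same-numbered libraries did not deviate together (correlations of -0.184 to 0.0502, 0 of 30 pairs over 0.1), so the numbers were not taken as pairs. Libraries with other numbers gave -0.101 to 0.179. The labels do not say whether the numbers mark a batch. With the replicate block, KO against WT gave 5 loci (31.5%), 4 regions, 20 ranks and 2711 bases in the block (exact permutation p = 0.0741), and rescue against KO gave 2 loci (17.1%), 2 regions, 16 ranks and -730 bases (p = 0.269, exact permutation). In that setting limma called 14078 of all 104967 regions higher and 9440 lower in KO. In rescue against KO it called 12322 higher and 9136 lower.

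Some differences changed sign. In KO against WT these were MMP7 (37.7) and MMP14 (-161) with a −log10 q of at least 5, MMP7 (33.5) and MMP14 (-491) with 150000 peaks, MMP1 (-0.5) and MMP15 (0.667) in summits, and MMP14 (-1.72) per megabase. In rescue against KO these were MMP10 (52.5) and MMP14 (207) with a −log10 q of at least 5, MMP7 (4), MMP10 (26.7), MMP14 (242) and MMP15 (-138) with 150000 peaks, MMP9 (-29.7), MMP13 (-91.5) and MMP15 (-31.2) with no flank, MMP1 (0.167), MMP2 (-0.167), MMP10 (0.167) and MMP13 (-0.667) in summits, and MMP13 (-0.456) and MMP15 (-0.209) per megabase. With Rescue1 alone MMP1 gave 83.7, and with Rescue2 alone MMP7 gave 115 and the rank at chr8:88320626-88320882 0.0226 points. With 1 library left out, MMP14 ranged from -53.2 to 431 in KO against WT, and in rescue against KO MMP1 from -87.3 to 23.5, MMP10 from -47.5 to 48.6 and MMP13 from -27.8 to 42.4. With all libraries and peaks, MMP9 and the chr8 region in rescue against KO had passed after adjustment, and MMP15 in KO and MMP2 in rescue before it; no other of these differences had a p under 0.05.

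MMP10 lost its separation in KO with a −log10 q of at least 5 (exact permutation p = 0.167), with 150000 peaks (p = 0.381, exact permutation) and per megabase (p = 0.238, exact permutation), whereas MMP3, MMP15 and MMP16 kept theirs in these 3 settings.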
